A study of Mus musculus with 8 samples.

Results

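The lysosome is the acidic compartment in which cells break down sugars, proteins and lipids, and its enzymes are carried there from the Golgi, mostly by a mannose 6-phosphate tag. Soluble hydrolases do the digestion, membrane proteins form the wall and move its products, and the V-ATPase pumps protons inward to keep the pH low. The transcription factor TFEB binds CACGTG-containing elements (CLEAR elements) near many of these genes, and it is held in the cytosol when mTORC1, a kinase complex downstream of PI3-kinase, phosphorylates it. In secretory cells, lysosomes also degrade surplus secretory granules.

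The genes described here were taken by name: 43 named lysosomal genes, plus every gene whose symbol starts with Atp6v. Where several probe sets carry only that gene's symbol, the brightest on average over the 8 arrays was read. Of the 43, 42 had such a probe set (Arsb, not analysed here, did not), and 19 Atp6v genes did, so 61 genes were measured of 12393 named genes in all. They were 12 glycosidases, 10 cathepsins and other proteases, 7 lipid hydrolases and lipid carriers, 4 sulfatases and phosphatases, 7 membrane proteins, 19 proton pump genes, and the pair Grn and Tfeb.

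The study set 4 transgenic samples beside 4 wild type samples of ventral prostate from FVB mice aged 20 weeks. The transgenic mice overexpress p110 beta, an isoform of PI3-kinase, in a constitutively active form, and their samples are labelled mouse prostatic intraepithelial neoplasia (mPIN), a precursor lesion; the wild type samples are labelled normal. The sources used here do not name the promoter of the transgene or say whether each sample is a separate animal, so the spread between samples may be partly technical. All values are RMA values on a log2 scale, in which 1 unit is a 2-fold difference. Array medians lay between 5.41 and 5.45 in transgenic samples and between 5.40 and 5.51 in wild type samples, and a value below all of them can be set by background.

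The tissue carried its label's markers on both sides. Pbsn, encoding the prostate secretory protein probasin, was at 11.57 ± 0.45 in transgenic and 12.85 ± 0.35 in wild type samples, and the luminal keratin gene Krt8 was at 11.38 ± 0.12 and 10.90 ± 0.17 in the same order (SD, n = 4 each). Wild type arrays 1 and 4 received the lowest array weights in limma, 0.443 and 0.518, against 0.627 to 1.84 for the other arrays, and counts without each of them stand beside the main ones below.

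Of the 61 lysosomal genes, 23 rose in transgenic prostate, 3 fell and 35 did not pass an adjusted p of 0.05 in limma. Among all 12393 genes, 11.0% passed, 5.99% higher and 4.98% lower in transgenic samples, against 42.6% of the lysosomal genes, of which 37.7% were higher. The lysosomal list was chosen with earlier results of these data known, so these shares are a description and not a test. The median log2 fold change of the 61 genes was 0.27, beside -0.04 for all genes. The 2 groups of arrays did not overlap for 29 of the 61 genes, and for 16.3% of all genes. Without wild type array 1 the count was 25 higher and 3 lower, and without wild type array 4 it was 23 and 3.

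The rises lay mainly among enzymes that work inside the lumen. Of 33 soluble hydrolases and lipid carriers 19 rose and 1 fell, with a median log2 fold change of 0.45. Glycosidases had 9 of 12 past the threshold, all higher, and a median of 0.70. Cathepsins and other proteases had 6 higher and 1 lower of 10, and a median of 0.44. Lipid hydrolases and carriers had 3 higher of 7 and a median of 0.27, and sulfatases and phosphatases 1 higher of 4 and a median of 0.05. Among 7 membrane proteins none passed in limma, 1 had an unadjusted p under 0.05, and the median was 0.08. The proton pump had 3 higher and 2 lower of 19 genes and a median of 0.06. Differences between these classes were not tested, because genes are not replicates of a condition.

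**Figure D1:**
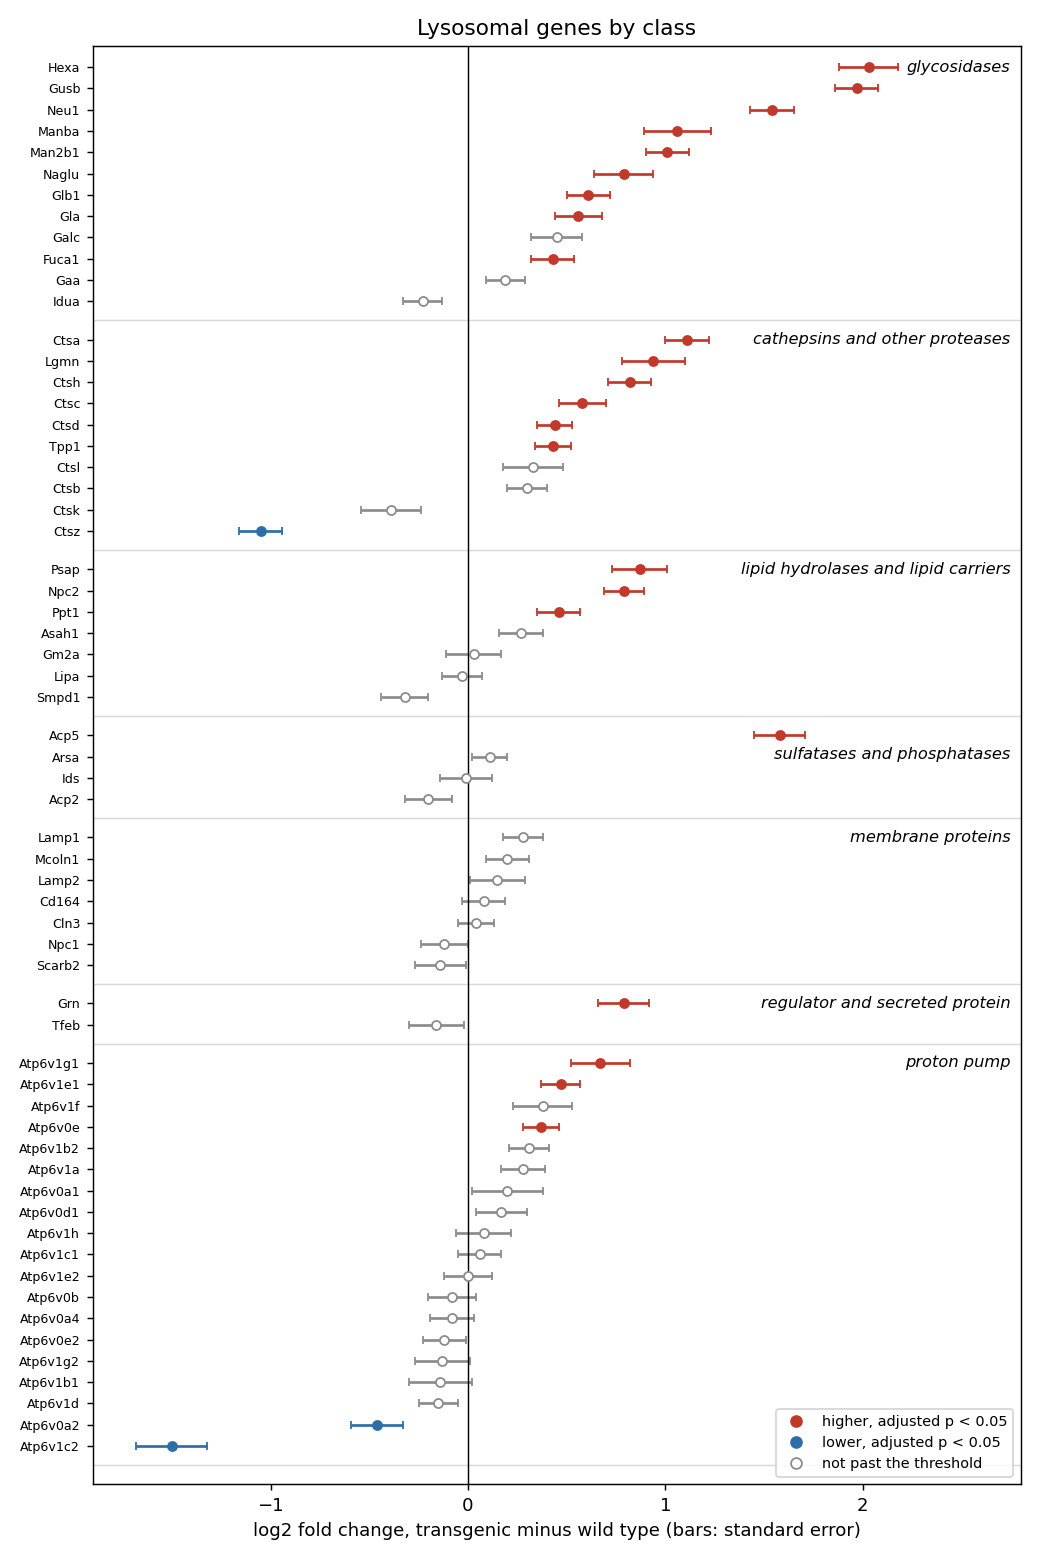
Log2 fold change (transgenic minus wild type, x axis) of each of the 61 lysosomal genes, by class down the page, with the standard error from limma as bars; red marks genes higher and blue genes lower in transgenic samples at an adjusted p under 0.05, and open grey circles did not pass. Glycosidases reach 2.03 at Hexa, membrane proteins lie between -0.14 and 0.28, and Atp6v1c2 lies lowest at -1.50.

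Promoter sequences are shown for 4 of the genes, chosen after the values were seen to set genes that rose beside one that did not pass and windows that hold the CLEAR core beside one that does not. The core searched was GTCACGTG, read on either strand (CACGTGAC on the other), which contains the palindromic E-box CACGTG. Windows run from 250 bases before to 50 bases after the gene start in RefSeq annotation of GRCm38.p6, 5′ to 3′ on the gene's strand, and capitals mark the core.
Hexa, chr9:59539290-59539589, plus strand: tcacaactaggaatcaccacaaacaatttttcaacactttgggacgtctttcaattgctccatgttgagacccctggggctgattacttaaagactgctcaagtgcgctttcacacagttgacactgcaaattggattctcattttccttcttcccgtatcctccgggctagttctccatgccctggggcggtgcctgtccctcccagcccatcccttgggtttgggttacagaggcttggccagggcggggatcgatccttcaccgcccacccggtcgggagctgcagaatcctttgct
Ctsa, chr2:164833523-164833822, plus strand: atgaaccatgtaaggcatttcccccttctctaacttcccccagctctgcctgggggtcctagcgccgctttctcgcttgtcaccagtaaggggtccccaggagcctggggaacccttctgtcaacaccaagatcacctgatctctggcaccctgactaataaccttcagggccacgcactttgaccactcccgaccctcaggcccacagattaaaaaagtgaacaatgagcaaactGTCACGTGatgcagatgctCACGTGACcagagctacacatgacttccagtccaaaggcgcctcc
Naglu, chr11:101069844-101070143, plus strand: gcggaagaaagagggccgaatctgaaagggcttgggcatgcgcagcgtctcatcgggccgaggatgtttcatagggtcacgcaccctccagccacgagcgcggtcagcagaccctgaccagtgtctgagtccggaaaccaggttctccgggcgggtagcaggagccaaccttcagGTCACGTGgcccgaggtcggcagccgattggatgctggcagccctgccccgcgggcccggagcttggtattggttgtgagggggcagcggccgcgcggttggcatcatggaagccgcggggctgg
Lamp1, chr8:13158911-13159210, plus strand: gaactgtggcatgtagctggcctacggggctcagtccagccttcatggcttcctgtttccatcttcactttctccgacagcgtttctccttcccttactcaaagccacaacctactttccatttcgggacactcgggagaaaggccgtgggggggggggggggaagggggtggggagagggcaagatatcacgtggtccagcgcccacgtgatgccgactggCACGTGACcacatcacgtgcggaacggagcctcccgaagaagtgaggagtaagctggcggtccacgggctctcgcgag

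The Ctsa window shown holds 2 cores, the first starting 14 bases before the gene start, the Naglu window 1 core starting 75 bases before it, and the Lamp1 window 1 core starting 28 bases before it, among 4 E-boxes. The Hexa window holds neither motif. Of 52 lysosomal genes matched to the promoter table by gene identifier, 13 held the core (25.0%) and 17 the E-box (32.7%). Among the 9882 measured genes matched to the table these shares were 4.05% and 10.8%, and among all 27025 genes with a window they were 2.55% and 8.09%. Within the lysosomal genes the share with the core was 28.6% of 21 that rose and 24.1% of 29 that did not pass. Of the 7 genes that rose by 2-fold or more, 1 held the core, Ctsa, and the windows of Hexa, Gusb, Neu1, Manba, Man2b1 and Acp5 held neither motif. Among membrane proteins 4 of 6 held it (Lamp1, Cln3, Mcoln1 and Cd164). A match describes the letters only.

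Glycosidases, which remove sugars from the ends of glycan chains, included Hexa and Gusb, the genes with the largest rises among the 61. Hexa, encoding the alpha subunit of beta-hexosaminidase, read 9.94, 10.53, 10.37 and 10.44 in transgenic arrays 1 to 4, against 8.56, 8.35, 8.02 and 8.23 in wild type arrays 1 to 4. Every transgenic value lay over 1 unit above every wild type value, a 4.08-fold rise (log2 fold change 2.03 ± 0.15 SE, adjusted p = 9.19e-06). Gusb, encoding beta-glucuronidase, read 8.60, 8.85, 8.73 and 8.86 in transgenic arrays against 7.05, 6.66, 6.67 and 6.79 in wild type arrays. The groups stood over 1 unit apart here too, with a 3.92-fold rise (adjusted p = 1.57e-06), and a second Gusb probe set gave 1.81 on the log2 scale. Neu1, the lysosomal sialidase, read 8.76, 8.67, 8.64 and 8.79 in transgenic arrays against 7.37, 6.95, 7.17 and 7.22 in wild type arrays. Transgenic Neu1 values kept within a narrow band above all wild type values, a 2.91-fold rise (adjusted p = 5.96e-06). The other pair of Neu1 probe sets, at 0.10 and 0.27 with transgenic means of 4.90 and 5.66, did not pass.

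Both mannosidases of the list rose about alike. Manba, encoding beta-mannosidase, read 7.22, 7.68, 7.55 and 7.78 in transgenic arrays against 6.77, 6.76, 6.24 and 6.22 in wild type arrays. The closest values were transgenic array 1 and wild type array 1, and the log2 fold change was 1.06 ± 0.17 (SE, adjusted p = 0.00168). Man2b1, encoding lysosomal alpha-mannosidase, read 8.95, 9.04, 8.88 and 9.23 in transgenic arrays against 7.93, 7.90, 8.13 and 8.10 in wild type arrays. These groups were clear of each other (1.01 ± 0.11 SE, adjusted p = 0.000127), while a further Man2b1 probe set, dimmer at means of 4.96 and 5.0, transgenic and wild type, gave -0.03 and did not pass.

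The other 4 glycosidases that passed rose by less than 2-fold. Naglu, which acts on heparan sulfate, read 7.86, 7.56, 7.48 and 7.70 in transgenic arrays against 6.92, 6.41, 7.04 and 7.06 in wild type arrays. The groups did not overlap, wild type array 2 being the lowest, and the log2 fold change was 0.79 ± 0.15 (SE, adjusted p = 0.00626). Glb1, the lysosomal beta-galactosidase, read 8.38, 8.40, 8.38 and 8.54 in transgenic arrays against 7.93, 7.53, 7.92 and 7.91 in wild type arrays. It rose by 0.61 ± 0.11 (SE, adjusted p = 0.00549), with 1 array in each group apart from its fellows. Gla, encoding alpha-galactosidase A, read 5.64, 6.07, 5.81 and 5.78 in transgenic arrays against 5.46, 5.20, 5.13 and 5.26 in wild type arrays. Its rise of 0.56 ± 0.12 (SE, adjusted p = 0.0102) is approximate, since the wild type mean lay below every array median, and its other, dimmer probe set at -0.15 did not pass.

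Fuca1, the alpha-fucosidase gene, read 10.66, 10.77, 10.67 and 10.97 in transgenic arrays against 10.38, 10.49, 10.21 and 10.28 in wild type arrays. The groups were separate but close, with a rise of 0.43 ± 0.11 (SE, adjusted p = 0.028), and of 0.77 and 0.61 at the other probe sets. The Fuca1 call did not survive the omission of transgenic array 2, 3 or 4 or of wild type array 3 or 4 (highest adjusted p = 0.0958), quantile normalization, or replicate number as a block. Galc, the galactosylceramidase, at 0.45 (adjusted p = 0.0586), Gaa, the glycogen-degrading acid alpha-glucosidase, at 0.19, and Idua, the alpha-iduronidase, at -0.23, did not pass, and both Galc means lay below every array median.

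**Figure D2:**
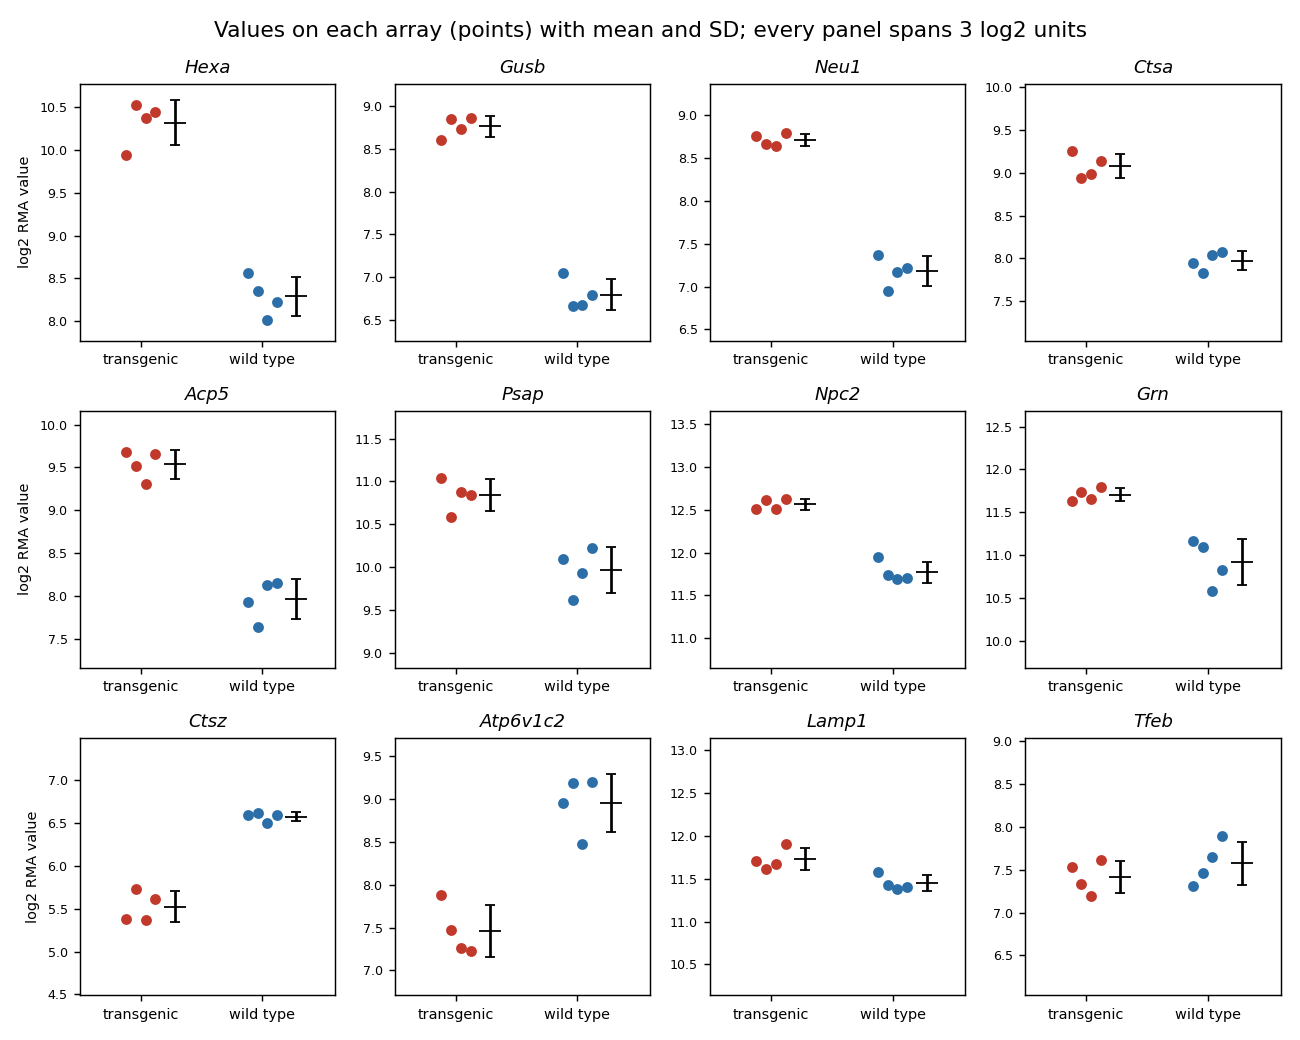
Log2 RMA values (y axis) of 12 genes on each array, transgenic left in red and wild type right in blue, with the mean and SD as a black mark; each panel spans 3 log2 units around its own centre. The groups do not overlap for Hexa, Gusb, Neu1, Ctsa, Acp5, Psap, Npc2, Grn, Ctsz, Atp6v1c2 and Lamp1, and they overlap for Tfeb; Lamp1 did not pass the threshold.

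Among proteases, the largest rise was that of Ctsa, the serine carboxypeptidase that binds and protects Neu1 and Glb1 in a complex. Ctsa read 9.25, 8.94, 8.98 and 9.14 in transgenic arrays against 7.95, 7.83, 8.04 and 8.07 in wild type arrays. The 2.16-fold rise was clear of the spread in both groups (1.11 ± 0.11 SE, adjusted p = 4.95e-05). Thus all 3 genes of that complex rose, by 1.54 for Neu1, 1.11 for Ctsa and 0.61 for Glb1. Lgmn, encoding legumain, an asparaginyl endopeptidase, read 6.48, 6.47, 6.42 and 6.10 in transgenic arrays against 5.04, 5.84, 5.38 and 5.45 in wild type arrays. Its groups stood apart by 0.94 ± 0.16 (SE, adjusted p = 0.00306), with wild type values near the array medians. Ctsh, an aminopeptidase cathepsin, read 8.09, 8.13, 7.93 and 8.15 in transgenic arrays against 7.33, 7.37, 7.29 and 7.03 in wild type arrays. Ctsh rose by 0.82 ± 0.11 (SE, adjusted p = 0.000446), with no overlap.

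Smaller rises were those of 3 further proteases. Ctsc, the dipeptidyl peptidase that activates granule proteases, read 8.80, 9.05, 8.73 and 8.94 in transgenic arrays against 8.27, 8.32, 8.05 and 8.54 in wild type arrays. The nearest values were transgenic array 3 and wild type array 4, and Ctsc rose by 0.58 ± 0.12 (SE, adjusted p = 0.0104). Ctsd, the aspartic protease, read 10.70, 10.56, 10.60 and 10.56 in transgenic arrays against 10.09, 10.22, 10.17 and 10.17 in wild type arrays. Both groups were tight and apart by 0.44 ± 0.09 (SE, adjusted p = 0.0082), a call lost under quantile normalization (adjusted p = 0.0507). Tpp1, the tripeptidyl peptidase, read 9.71, 9.80, 9.67 and 9.78 in transgenic arrays against 9.22, 9.38, 9.41 and 9.21 in wild type arrays. It rose by 0.43 ± 0.09 (SE, adjusted p = 0.0129), with no overlap. The Tpp1 call was lost under quantile normalization and without transgenic array 2 (adjusted p = 0.0517), and a second, dimmer Tpp1 probe set, at -0.03, did not pass. The cysteine cathepsins Ctsl and Ctsb, at 0.33 and 0.30, did not pass, although the Ctsb groups did not overlap. Ctsk, at -0.39, did not pass.

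Ctsz, encoding cathepsin Z, a carboxypeptidase, went the other way. It read 5.38, 5.73, 5.37 and 5.62 in transgenic arrays against 6.59, 6.62, 6.50 and 6.59 in wild type arrays. The wild type values lay close together and above all transgenic values, and Ctsz fell by 1.05 ± 0.11 (SE, adjusted p = 8.66e-05). Its other probe sets fell by 1.19 and 0.87.

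Among lipid hydrolases and carriers, the changed genes encode an activator precursor, a carrier and a thioesterase. Psap, the precursor of the saposins that present sphingolipids to hydrolases, read 11.04, 10.59, 10.88 and 10.84 in transgenic arrays against 10.10, 9.61, 9.93 and 10.22 in wild type arrays. The lowest transgenic value was above the highest wild type value, a rise of 0.87 ± 0.14 (SE, adjusted p = 0.00234), and a second Psap probe set rose by 1.00. Npc2, the soluble cholesterol carrier of the lumen, read 12.51, 12.61, 12.51 and 12.62 in transgenic arrays against 11.95, 11.74, 11.69 and 11.70 in wild type arrays. Both groups were tight, with a rise of 0.79 ± 0.10 (SE, adjusted p = 0.000303) and of 0.98 at the other probe set. Ppt1, the palmitoyl-protein thioesterase, read 9.44, 9.08, 9.04 and 9.33 in transgenic arrays against 8.79, 8.77, 8.83 and 8.63 in wild type arrays. The groups did not overlap, and Ppt1 rose by 0.46 ± 0.11 (SE, adjusted p = 0.0228). Omitting transgenic array 1 or 4 or wild type array 2 or 4 ended that call (highest adjusted p = 0.0766), as did the replicate block and quantile normalization, while the other probe set passed at 0.48. Acid ceramidase (Asah1, 0.27), acid sphingomyelinase (Smpd1, -0.32), acid lipase (Lipa, -0.03) and the GM2 activator (Gm2a, 0.03) did not pass.

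Of the sulfatases and phosphatases, Acp5 alone passed. Acp5, the tartrate-resistant acid phosphatase, read 9.68, 9.51, 9.31 and 9.65 in transgenic arrays against 7.93, 7.64, 8.13 and 8.15 in wild type arrays. Its groups were over 1 unit apart, a 2.99-fold rise (1.58 ± 0.13 SE, adjusted p = 2.16e-05). Acp2, the lysosomal acid phosphatase, at -0.20, the iduronate sulfatase gene Ids at -0.01 and the arylsulfatase gene Arsa at 0.11 did not pass, and both Ids means lay below every array median.

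The membrane proteins showed no call in limma. Lamp1, a major glycoprotein of the lysosomal wall, read 11.71, 11.62, 11.67 and 11.91 in transgenic arrays against 11.58, 11.43, 11.38 and 11.41 in wild type arrays. The Lamp1 groups did not overlap, but the difference of 0.28 ± 0.10 (SE) had an adjusted p of 0.116. Lamp2, its relative, overlapped between groups, with means of 11.09 ± 0.29 and 10.94 ± 0.11, transgenic and wild type (SD, n = 4 each), a difference of 0.15. Other Lamp2 probe sets, at 0.40, 0.01 and -0.14, did not pass. The calcium channel gene Mcoln1 was at 0.20, the sialomucin gene Cd164 at 0.08 and Cln3 at 0.04. The Mcoln1 groups did not overlap, from 6.71 to 6.81 in transgenic and from 6.31 to 6.70 in wild type arrays. A second Mcoln1 probe set, at 0.37, did not pass (adjusted p = 0.0689). Scarb2, the receptor that carries glucocerebrosidase to the lysosome, was at -0.14, while its other probe set passed at 0.42 (adjusted p = 0.0412). Npc1, the cholesterol exporter that takes over from Npc2, was at -0.12, with both means below every array median.

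Grn and Tfeb differed from each other. Grn, encoding progranulin, a secreted protein that is also processed in lysosomes, read 11.63, 11.74, 11.66 and 11.79 in transgenic arrays against 11.16, 11.10, 10.58 and 10.83 in wild type arrays. Transgenic values clustered above all wild type values, a rise of 0.79 ± 0.13 (SE, adjusted p = 0.00257), and its other probe sets rose by 0.81 and 0.77. Tfeb read 7.53, 7.34, 7.19 and 7.61 in transgenic arrays against 7.31, 7.46, 7.65 and 7.89 in wild type arrays. The Tfeb groups overlapped, with a difference of -0.16 ± 0.14 (SE, adjusted p = 0.599). The array measures Tfeb transcript, not where the protein lies in the cell.

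In the proton pump, the V1 sector hydrolyses ATP in the cytosol and the V0 sector passes protons through the membrane. Of 12 V1 genes 2 rose and 1 fell, with a median of 0.07, and of 7 V0 genes 1 rose and 1 fell, with a median of -0.08. The share of pump genes past the threshold, 26.3%, stood beside 11.0% of all genes. Of the 14 pump genes that did not pass, Atp6v1a was at 0.28, Atp6v1b2 at 0.31, Atp6v1c1 at 0.06, Atp6v1d at -0.15, Atp6v1f at 0.38, Atp6v1h at 0.08, Atp6v0a1 at 0.20, Atp6v0b at -0.08 and Atp6v0d1 at 0.17.

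Atp6v1c2, a tissue-restricted isoform of the V1 subunit C, changed most. It read 7.88, 7.47, 7.26 and 7.23 in transgenic arrays against 8.95, 9.19, 8.48 and 9.20 in wild type arrays. All transgenic values lay below all wild type values, and Atp6v1c2 fell by 1.50 ± 0.18 (SE, adjusted p = 0.000328), a level 2.82-fold higher in wild type. The paralog Atp6v1c1, read from 8.77 to 8.95 in transgenic and from 8.57 to 9.0 in wild type arrays, overlapped between groups. Atp6v0a2, of the subunit a family that sets where the pump is placed, read 7.06, 6.97, 6.96 and 7.06 in transgenic arrays against 7.50, 7.23, 7.82 and 7.34 in wild type arrays. The transgenic values were tight and the wild type ones spread, and Atp6v0a2 fell by 0.46 ± 0.13 (SE, adjusted p = 0.0408). Omitting any of the 4 transgenic arrays, or wild type array 1 or 3, ended the call (highest adjusted p = 0.115), as did the replicate block, and the other Atp6v0a2 probe sets, at -0.08 and -0.20, did not pass.

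The 3 pump genes that rose did so by less than 2-fold. Atp6v1g1, of the V1 stalk, read 9.90, 10.33, 10.25 and 10.19 in transgenic arrays against 9.69, 9.70, 9.51 and 9.10 in wild type arrays, a rise of 0.67 (adjusted p = 0.0142). Its lowest transgenic and highest wild type values lay close; with transgenic array 2 omitted it missed the threshold (adjusted p = 0.0535), and further probe sets at 0.47 and 0.19 did not pass. Atp6v1e1, also of the stalk, read 9.30, 9.41, 9.56 and 9.36 in transgenic arrays against 9.03, 8.88, 8.97 and 8.85 in wild type arrays. The groups were separate, with a rise of 0.47 ± 0.10 (SE, adjusted p = 0.00928), but further probe sets at -0.15 and 0.22 did not pass. Atp6v0e, of the membrane sector, read 9.87, 9.79, 9.80 and 9.71 in transgenic arrays against 9.49, 9.48, 9.36 and 9.38 in wild type arrays. It rose by 0.37 ± 0.09 (SE, adjusted p = 0.0235), with no overlap. Omitting transgenic array 1, 2 or 3 or wild type array 3 ended that call (highest adjusted p = 0.0797), as did the replicate block and quantile normalization. Atp6v0e2 was at -0.12. Atp6v1b1, Atp6v1e2, Atp6v1g2 and Atp6v0a4, isoforms known from specialised tissues such as kidney, testis and brain, had both means below every array median, with transgenic means from 3.46 to 4.16 and wild type means from 3.45 to 4.23. Their log2 fold changes were -0.14 for Atp6v1b1, 0.00 for Atp6v1e2, -0.13 for Atp6v1g2 and -0.08 for Atp6v0a4, and none passed.

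**Figure D3:**
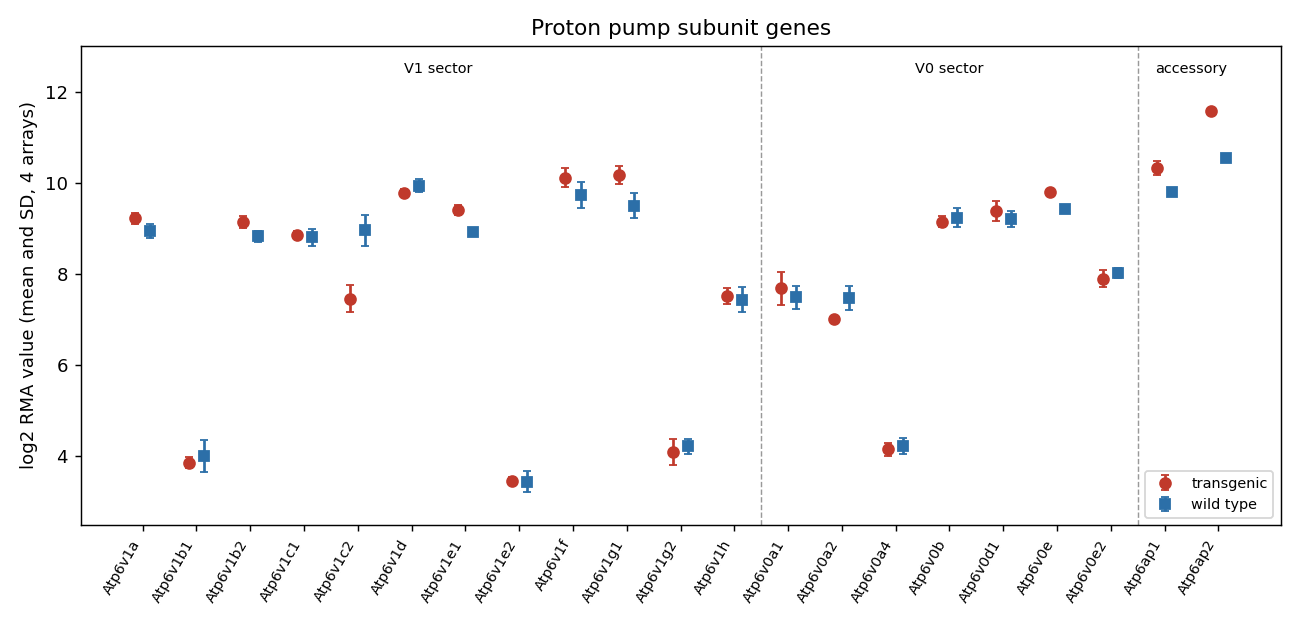
Mean log2 RMA value with SD over 4 arrays (y axis) of the 19 proton pump genes and the accessory genes Atp6ap1 and Atp6ap2 (x axis), transgenic as red circles left of wild type as blue squares. Atp6v1c2 is lower in transgenic samples by 1.50 and Atp6ap2 higher by 1.03, and most other pairs lie close together.

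Beyond the genes named Atp6v, 8 further pump genes, mostly accessory and assembly genes, gave 2 higher and 1 lower. This was 37.5% beside 11.0% of all genes, with a median of 0.03. They included Tcirg1, a V0 subunit gene, at 0.13 with both means below every array median. Atp6ap2, the accessory subunit also known as the prorenin receptor, averaged 11.57 ± 0.06 in transgenic and 10.55 ± 0.03 in wild type samples (SD, n = 4 each), a rise of 1.03 (adjusted p = 2.03e-05) that its 2 other probe sets shared in call and direction. Atp6ap1 rose by 0.52 (adjusted p = 0.00859). Dmxl1, which encodes a factor for pump assembly, fell by 0.56, a call that held on omission of transgenic array 1 or wild type array 4 but of no other array (highest adjusted p = 0.09).

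Of 15 other lysosomal enzymes and membrane proteins outside the list 1 rose and 2 fell, 20.0% beside 11.0% of all genes, with a median of 0.02. The share that rose, 6.67%, was near the 5.99% of all genes. Ctss, the cathepsin of antigen presentation, rose by 0.90 (adjusted p = 0.00896), and the acid DNase gene Dnase2a and the cystine exporter gene Ctns fell by 0.55 and 0.50. The Dnase2a call was lost without transgenic array 2 or 3 (adjusted p up to 0.0576). Whether these genes differ from the listed ones was not tested.

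Of 12 genes that sort enzymes to the lysosome 1 rose and 1 fell, 16.7% beside 11.0% of all genes, with a median of 0.04. Gga2, an adaptor that loads tagged hydrolases into vesicles, fell by 0.71 (adjusted p = 0.00226), while Vps29, of the retromer, rose by 0.40, a call that held on omission of wild type array 3 but of no other array (highest adjusted p = 0.0809), and none of its 3 further probe sets passed in that direction. Of 16 genes of the TFEB family and of lysosomal nutrient sensing 2 fell, 12.5% beside 11.0% of all genes, with a median of -0.06. Mitf, a relative of Tfeb, fell by 0.58 (adjusted p = 0.00778), though a second probe set did not share the call, and the Rag GTPase gene Rraga fell by 0.57, a call that held only on omission of transgenic array 4 or wild type array 1 (highest adjusted p = 0.0997).

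Autophagy genes, which feed cargo to the lysosome, gave 2 higher and 5 lower of 23, 30.4% beside 11.0% of all genes, with a median of -0.14. Wipi1, a phosphoinositide-binding autophagy protein gene, averaged 7.59 ± 0.11 in transgenic and 8.36 ± 0.16 in wild type samples (SD, n = 4 each) and fell by 0.77 (adjusted p = 0.000809). Sqstm1, encoding the cargo receptor p62, fell by 0.52 and Wipi2 by 0.42, while Atg12, a ubiquitin-like conjugation factor, rose by 0.47. Leaving out single arrays ended the calls of Sqstm1 (transgenic array 4 or wild type array 2, adjusted p up to 0.0697), Wipi2 (transgenic array 1, 2 or 3 or wild type array 2 or 4, adjusted p up to 0.0757) and Atg12 (transgenic or wild type array 3, adjusted p up to 0.0514). The other 3 calls, of Atg3, Becn1 and Map1lc3a, were lost in 10, 11 and 11 alternatives in that order. Of the 7 autophagy calls, Wipi1's alone was kept in every alternative that gave it a value, but only 2 of its 4 further probe sets shared the call. Neither the 2 further Atg12 probe sets nor the 1 further Wipi2 probe set shared the call of its gene.

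The level of each class on each array, taken as the mean of gene-centred log2 values, separated the groups for 5 of the 7 classes. Glycosidases lay between 0.36 and 0.50 on transgenic arrays and between -0.51 and -0.34 on wild type arrays. Proteases lay between 0.13 and 0.23 on transgenic arrays and between -0.27 and -0.10 on wild type arrays. Lipid hydrolases and carriers lay between 0.04 and 0.32 on transgenic arrays, against -0.20 to -0.10 on wild type arrays, and sulfatases and phosphatases, where Acp5 alone was called, between 0.04 and 0.32, against -0.33 to -0.06. Grn and Tfeb together, where Grn alone was called and the Tfeb groups overlapped, lay between 0.02 and 0.30 on transgenic arrays. On wild type arrays the pair lay between -0.29 and -0.05. Membrane proteins, from -0.05 to 0.10 in transgenic and from -0.11 to 0.06 in wild type, overlapped, and so did the proton pump, from -0.02 to 0.05 and from -0.05 to 0.05 in the same order. The autophagy list was lower on every transgenic array, from -0.05 to -0.04, than on any wild type array, from 0.03 to 0.08.

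**Figure D4:**
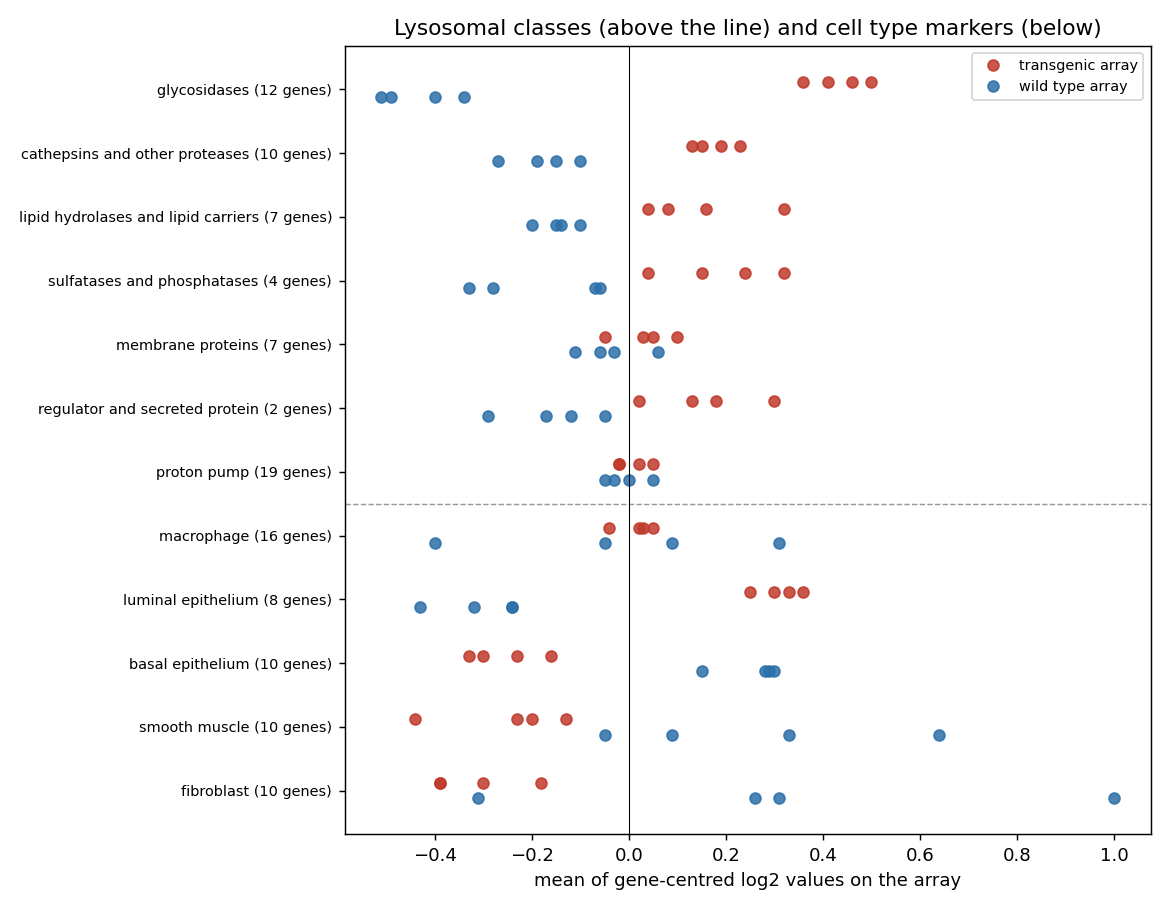
Mean of gene-centred log2 values on each array (x axis) for the 7 lysosomal classes above the dashed line and 5 cell type marker lists below it, 1 point per array, transgenic in red above wild type in blue. Of the classes, membrane proteins and the proton pump overlap between the groups and the other 5 do not; macrophage markers overlap, and luminal markers are higher and basal and smooth muscle markers lower on transgenic arrays.

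Lysosomal genes are strongly expressed in macrophages, and fewer cells of a type and less RNA per cell cannot be told apart in whole tissue. Of 16 macrophage markers 1 passed, 6.25% beside 11.0% of all genes. It was the mannose receptor gene Mrc1, with a rise of 2.27. The macrophage list's level, a mean that includes Mrc1, lay between -0.04 and 0.05 on transgenic arrays, inside the wild type range of -0.40 to 0.31. Of the 16 log2 fold changes 6 were positive and 10 negative, with a median of -0.06. None of 6 osteoclast and giant cell genes, 10 markers of other leukocytes and 8 of endothelium passed in limma, with 1 of each list at an unadjusted p under 0.05. Most genes of each of these lists, and several macrophage markers such as Itgam, had both means below every array median. A value there can be set by background, so a change could be missed. Luminal epithelial markers moved with the hydrolases: 5 of 8 rose, 62.5% beside 11.0% of all genes. Among them were Elf3, by 1.26, and Cd24a, by 1.18, while Krt19 at 0.39, Krt18 at 0.18 and Hoxb13 at -0.14 did not pass. The luminal list's level lay between 0.25 and 0.36 on transgenic arrays, against -0.43 to -0.24 on wild type arrays. Of 10 basal markers 5 fell, and among them Krt15 fell by 1.32 and Krt5 fell by 1.22, with levels of the list from -0.33 to -0.16 on transgenic and from 0.15 to 0.30 on wild type arrays. Of 10 smooth muscle markers 2 fell (20.0%), Pcp4 by 1.20 and Smtn by 0.70, and all 10 log2 fold changes were negative, with a median of -0.42. Levels of that list ran from -0.44 to -0.13 on transgenic and from -0.05 to 0.64 on wild type arrays. Of 10 fibroblast markers 2 fell (20.0%), Dcn by 1.15 and Pdgfra by 0.74, and all 10 log2 fold changes were negative, with a median of -0.59. The fibroblast list's levels overlapped through wild type array 1, at -0.31. Transgenic arrays ran from -0.39 to -0.18, and wild type arrays 2 to 4 from 0.26 to 1.0. The Pdgfra call was lost on omission of any of 6 arrays (highest adjusted p = 0.129), and its further probe set did not share the call. Of 5 secretory product genes of the ventral prostate 3 fell, and among them Msmb fell by 1.72 and Pbsn fell by 1.28. The 3 prime minus 5 prime difference of control probe sets, a sign of RNA quality, was 0.97 to 1.40 in transgenic and 1.34 to 1.56 in wild type samples. The part of epithelial content, stroma and RNA quality in the lysosomal result was not tested.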

How the data were processed

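Biotin-labelled total RNA of 8 ventral prostate samples was measured on Affymetrix arrays, each sample on its own array. The deposited values are log2 RMA values per probe set, per the submitters' processing notes, which give no version or settings. RMA scales arrays to each other, so a change of all transcripts alike may not be seen; the deposited arrays still differed in median (5.40 to 5.51), and quantile normalization moved some calls.

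Of 22690 probe sets, 64 controls were left out. The platform annotation gave 1 symbol to 20380 of the other 22626, several to 691 and none to 1555, and symbols were checked by gene identifier in RefSeq (GRCm38.p6). One limma model (version 3.58.1, R 4.3.3; lmFit and eBayes) covered all 22626, with p-values adjusted over them by Benjamini and Hochberg and a threshold of 0.05. The fit was tested on simulated data, in which fewer probe sets changed than passed in the real data. It recovered 27 of 80 changes of 0.5 log2 units (33.8%), 65 of 80 of 1.0 (81.2%) and 40 of 40 of 2.0. Of 22426 unchanged probe sets it called 6. A gene that did not pass may therefore still differ, since most changes of 0.5 and some of 1.0 were missed. Differences are transgenic minus wild type.

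The genes and lists were chosen with earlier results of these data known. Values on every array are given for each of the genes past the threshold, and fold changes for the rest. From each other pathway list up to 4 genes past the threshold were named, and from each cell type list up to 2, by absolute fold change; Krt8 and the figure's choice of genes were taken after their values were seen. Results were recomputed with quantile or cyclic loess normalization, a filter on dim probe sets, another variance prior, array weights, other choices of probe set, the replicate number as a block, leaving out each array and a threshold of 0.01. Sequences are RefSeq's; 52 of 61 genes matched.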

Additional observations from a re-analysis of the deposited data

Results flagged for a closer look

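For 8 of 122 groups of 4 arrays, 1 array lay far from the other 3 by Dixon's test, where chance flags about 1 in 20 groups. Among genes that rose, Glb1 read 8.54 on transgenic array 4, with 8.38 to 8.40 on the others, and 7.53 on wild type array 2, with 7.91 to 7.93 on the others. Lgmn read 6.10 on transgenic array 4, with 6.42 to 6.48 on the others. Transgenic array 1 stood out for Ctsl at 9.83 (10.35 to 10.43 on the others), for Gm2a at 8.57 (7.95 to 8.02) and for Atp6v0e2 at 8.17 (7.80 to 7.85). Gm2a read 7.93 on wild type array 2, with 8.13 to 8.16 on the others. Npc1 read 4.71 on transgenic array 2, with 4.44 to 4.48 on the others, all below every array median.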

How the results depend on the processing

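Of the 26 genes past the threshold, 16 kept their call and direction in every one of the 17 alternative fits that gave them a value, and 10 lost it in at least 1. Leaving out each array gave 19 to 25 higher and 2 to 3 lower genes. Leaving out all probe sets with the suffix a, s or x, which left 48 genes, gave 15 higher and 1 lower; Man2b1 was then at -0.03 and Atp6v1e1 at -0.15. Leaving out only suffixes s and x, an alternative added after seeing the data, gave 22 higher and 3 lower, with Atp6v1e1 at -0.15. At a threshold of 0.01 there were 16 higher and 2 lower. Of genes not past the threshold, 6 passed with array weights (28 higher, 4 lower). Ctsk, Atp6v1b2 and Atp6v1f also passed without wild type array 1, Ctsl without transgenic array 1, Ctsb and Galc without wild type array 4, and Galc without transgenic array 4 and under both normalizations. When each gene's probe sets were averaged, Gla (adjusted p = 0.238), Tpp1 (0.190), Atp6v1e1 (0.213) and Atp6v0a2 (0.125) lost their calls, with 20 higher and 2 lower. The glycosidase median was 0.61 with averaged probe sets, 0.58 without suffixes a, s and x, 0.79 without the dimmest 40% of probe sets, and 0.59 to 0.75 leaving out each array. The protease median was 0.34 under quantile normalization and 0.58 without suffixes a, s and x. The membrane protein median ranged from 0.02 to 0.12 and the pump median from 0.00 to 0.13 leaving out each array, and the pump median was 0.17 without the dimmest 40% of probe sets. With the replicate block 20 genes were higher and 2 lower. Deviations of same-numbered arrays correlated at -0.31, 0.235, -0.20 and 0.331, and those of differently numbered arrays from -0.459 to 0.471. These values gave no sign that the numbers pair the samples, but with 4 arrays per group they cannot settle it. The causes of these shifts were not tested. Signal over background limits the 7 genes with both means below every array median.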
